A study of Rattus norvegicus with 200 samples.

Results

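The genes described here encode the constitutive subunits of the proteasome. They were the genes of the count table whose symbol is Psma, Psmb, Psmc or Psmd followed by a number, apart from the immunoproteasome genes Psmb8, Psmb9 and Psmb10, and whose mean over all libraries was at least 1 CPM (counts scaled to library size). Of 20361 genes in the table, 34 met these conditions, 14 of the core particle and 20 of the regulatory particle. All 34 passed the filter on low counts. The gene nearest above the limit was Psmd10 at 1.31 CPM, and those below it were Psmb11, a thymic subunit, at 0.306 CPM and Psma8, a testis subunit, at 0.00903 CPM.

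The proteasome degrades proteins that carry ubiquitin. Its core particle is a barrel of alpha rings, which form the gate, and beta rings, in which Psmb5, Psmb6 and Psmb7 carry the chymotrypsin-like, caspase-like and trypsin-like sites. The regulatory particle caps the barrel: a base with a ring of ATPases unfolds the substrate, and a lid removes its ubiquitin. In microglia, the resident macrophages of the brain, interferon replaces the catalytic subunits with Psmb8, Psmb9 and Psmb10. Transcription of the constitutive subunits is raised when proteasomes are inhibited, through the transcription factor encoded by Nfe2l1.

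Bulk RNA was sequenced in libraries labelled as brain microglia. The animals were Wistar rats, an outbred stock, all adult, male and wild type. In 3 groups they ate chow and in 3 a high-fat diet (HFD). On each diet the schedule was ad libitum, dark-feeding or light-feeding, the last 2 named for the phase in which food was given. Each ad libitum group held 34 libraries and each of the other groups 33, spread over 6 Zeitgeber times (ZT2, 6, 10, 14, 18 and 22, hours after lights on). The composition of the diets, the rats' ages and the number of rats behind a library were not given in the sources used here, so p-values measure only the spread between libraries, which may be technical. Titles of the chow and HFD libraries formed separate numbered series, so diet and any processing that followed these series cannot be told apart.

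Total counts ran from 3.78 M to 11.6 M per library, with a median of 7.55 M, and no pair of libraries was identical. The libraries held RNA of other brain cells. The mean levels of the microglial genes Csf1r, P2ry12, Cx3cr1 and Tmem119 were 302, 72.9, 61.8 and 43.2 CPM, against 3475 CPM for the myelin gene Mbp and 383 CPM for the synaptic gene Snap25. The median of 17 measured microglial markers was 43.5 to 57.7 CPM in the 6 groups, that of 12 oligodendrocyte markers 387 to 450 CPM and that of 14 neuronal markers 174 to 196 CPM. No marker of these lists was at 0 in a group. The subunit levels below are therefore those of mixed libraries, and fewer cells of a type cannot be told apart from less RNA per cell.

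Promoter sequences were looked at because the factor encoded by Nfe2l1 binds antioxidant response elements, and these are the stretches that hold the motif's letters. RefSeq's promoter table (GRCr8) held 30 of the 34 genes; Psma7, Psmd6, Psmd12 and Psmd14 had none. The motif TGACNNNGC, searched on both strands over the 250 bases before each start site, occurred in 6 of 30 promoters (20.0%), against 10.2% of all 27457 promoters and 12.2% of those of genes tested. By particle it was in 4 of 13 core promoters, those of Psma3, Psmb2, Psmb5 and Psmb6, and in 2 of 17 regulatory promoters, those of Psmd1 and Psmd9. Each match is printed with up to 20 bases on each side, itself in capitals, on the strand of the gene. Where the capitals begin with GC the motif lies on the other strand. Coordinates are chr15:32047411-32047459 (minus strand) for Psmb5, chr10:55737844-55737887 (plus) for Psmb6, chr5:144254970-144255018 (plus) for Psmb2 and chr6:95219717-95219748 (plus) for Psma3. They are chr9:94157786-94157834 (plus) for Psmd1, and chr12:39018360-39018408 and chr12:39018313-39018361 (minus) for the 2 matches of Psmd9. The Psmb2 match overlaps a CCAAT.
Psmb5: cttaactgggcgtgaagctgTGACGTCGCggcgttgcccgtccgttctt
Psmb6: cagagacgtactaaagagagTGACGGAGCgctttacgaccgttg
Psmb2: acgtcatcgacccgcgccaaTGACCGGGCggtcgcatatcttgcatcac
Psma3: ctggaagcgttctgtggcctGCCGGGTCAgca
Psmd1: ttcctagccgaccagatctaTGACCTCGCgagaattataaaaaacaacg
Psmd9 (farther match): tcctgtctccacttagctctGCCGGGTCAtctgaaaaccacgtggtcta
Psmd9 (nearer match): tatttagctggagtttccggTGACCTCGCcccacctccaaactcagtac

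The genes with a match did not behave alike below: Psmb5 and Psmd9 were lower on HFD in every schedule, Psmd1 was higher on HFD under dark-feeding and light-feeding, and Psmb2 passed no diet test. The letters CCAAT, the core of the box bound by the factor NF-Y, were in 16 of 30 subunit promoters (53.3%) against 34.3% of all promoters and 34.9% of those of genes tested. The letters CCGGAAG, a core of sites for ETS factors, were in 9 of 30 (30.0%) against 7.74% and 14.2%. These are matches of letters in a window and not binding sites.

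Subunit levels per transcript length, in the deposited FPKM, spanned 5.17 to 67.2 as means over 200 libraries. Highest were Psmd3 at 67.2 ± 6.15 FPKM (SD, n = 200) and Psmd13 at 59.4 ± 6.97, both scaffold subunits of the lid. Psmb1, a beta-ring subunit without a proteolytic site, followed at 57.6 ± 10.1. Psmd13 and Psmb1 differed by less than either SD. Medians over genes were 29.6 FPKM for the core and 32.2 FPKM for the regulatory particle. By role the median was 49.4 FPKM for the ATPases, 42.4 for the other base subunits and 35.0 for the beta ring. It was 32.2 for the lid, 27.4 for the alpha ring and 10.2 for the base chaperones. The ATPases Psmc1, Psmc3, Psmc4 and Psmc5 stood close together at 48.8 to 53.9 FPKM, while Psmc2 was at 29.8 and Psmc6 at 13.0. Among the catalytic subunits Psmb7 was at 35.0 ± 7.82, Psmb6 at 31.1 ± 7.62 and Psmb5 at 28.0 ± 7.93 FPKM, differences within the SD. Psmd4, the ubiquitin receptor of the base, was at 42.4 ± 6.03 FPKM and Psmd14, the deubiquitinating enzyme of the lid, at 11.7 ± 2.01. The chaperones that assemble the base were also low, with Psmd5 at 12.6, Psmd9 at 10.2 and Psmd10, also called gankyrin, at 5.17 FPKM, the least of the 34.

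Spread between libraries also differed by gene. The coefficient of variation of CPM was 6.60% for Psmd2, a scaffold of the base, and 8.17% for Psmd11, the lid subunit that clamps the core to the cap. It was 26.2% for Psmb5, 22.3% for Psmb6 and 33.7% for Psmd10, the least expressed. Summed over genes, the core reached 68.8%, 70.1% and 70.9% of the regulatory sum in chow ad libitum, dark-feeding and light-feeding, and 69.4%, 66.5% and 68.2% in the matching HFD groups, with SDs of 2.99 to 6.12 percentage points. The immunoproteasome genes together made 20.1% to 26.0% of the FPKM of the constitutive catalytic genes in the 6 groups. Their highest share, 26.0% ± 6.88 (SD, n = 33), was in HFD dark-feeding, and the ranges of all groups overlapped. The immunoproteasome sum itself averaged 20.7 FPKM there, below the 22.8 FPKM of chow dark-feeding. The catalytic sum of HFD dark-feeding, 80.1 FPKM, was the lowest of the 6 groups.

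Some libraries stood apart in a way that touches these genes. Core genes are short: the transcript length implied by the counts and FPKM was under the median of all genes (2360 bases) for 14 of 14 core genes, with a median of 638 bases, and for 17 of 20 regulatory genes, with a median of 1240 bases. In each library the mean log2 CPM deviation of the shortest 10% of transcripts (at most 876 bases) less that of the longest 10% (at least 5610 bases) was taken as its short-transcript contrast. This contrast was above 0.4 in 10 libraries, a limit chosen after seeing the data. They were 3 of chow dark-feeding at ZT14, 2 of chow ad libitum at ZT14 and 1 at ZT18, 2 of chow light-feeding at ZT2 and 1 at ZT18, and 1 of HFD ad libitum at ZT6. All 7 chow libraries with title numbers from 49 to 57 were among them.

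The mean core level in these 10 libraries was 0.31 to 0.63 above the mean of all libraries on the log2 CPM scale, and in the other 190 it ran from -0.31 to 0.29. The mean regulatory level was 0.12 to 0.34 in the 10 and -0.21 to 0.18 in the others. Markers of several cell types moved with them, given as the median log2 deviation in the 10 libraries against the others. It was 2.87 against -0.28 for erythrocyte genes, 0.87 against -0.056 for T and NK cells, 0.63 against -0.012 for microglia and 0.63 against -0.029 for mural cells. It was 0.57 against -0.032 for endothelial cells, 0.57 against -0.080 for astrocytes, 0.17 against -0.011 for oligodendrocytes and 0.10 against -0.0043 for neurons. Their part in the subunit levels was not tested. Over all 200 libraries the core level and the contrast, with the subunit genes left out of it, had Pearson's r of 0.86 and Spearman's rho of 0.76, given as a description since both share each library's counts. The r was 0.84 without the 2 libraries farthest from the median contrast, 0.75 without the 10, 0.86 within chow and 0.76 within HFD. For the regulatory level r was 0.73 over all libraries and 0.47 within HFD. The contrast also differed with diet, averaging 0.066, 0.14 and 0.12 in chow ad libitum, dark-feeding and light-feeding and -0.082, -0.13 and -0.11 in the HFD groups.

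**Figure D1:**
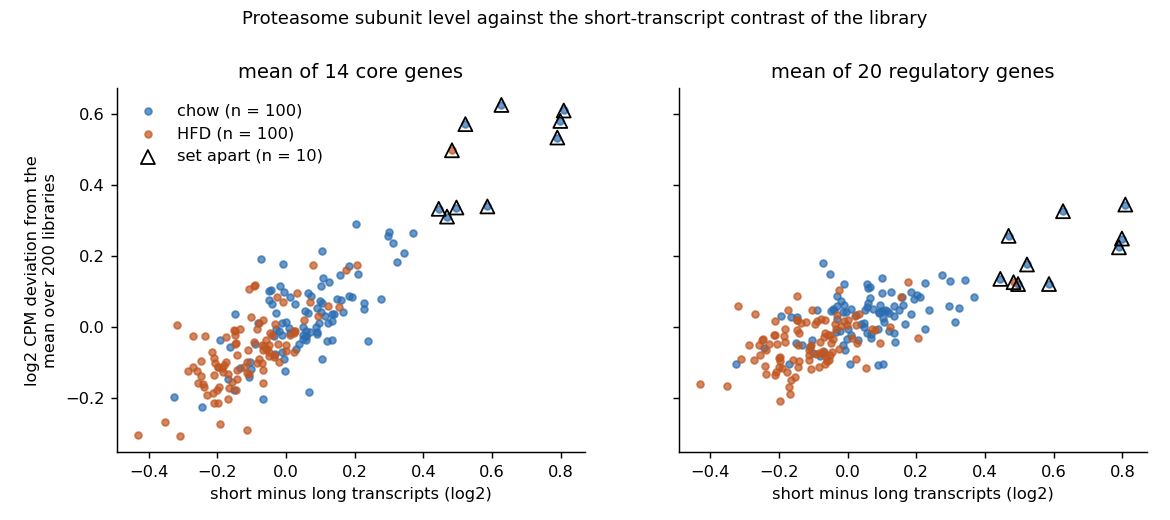
Mean level of the 14 core genes (left) and 20 regulatory genes (right) in each library, as the deviation of log2 CPM from the mean of 200 libraries, against the library's short-transcript contrast in log2 units, computed without the subunit genes. Points are libraries coloured by diet and triangles mark the 10 libraries that stood apart, whose core levels run from 0.31 to 0.63.

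HFD was compared with chow within each schedule, at matched times, to ask which genes differed between the diet groups. Under ad libitum feeding 14 of 34 subunit genes were lower on HFD and 0 higher (edgeR's quasi-likelihood test, Benjamini-Hochberg adjusted p under 0.05), where 10.1% of all genes tested were lower and 9.96% higher. Of these genes 11 were of the regulatory particle and 3, Psma2, Psmb1 and Psmb5, of the core. The median log2 fold change (log2FC) was -0.098 over the core, -0.10 over the regulatory particle and -0.012 over all genes. Before adjustment 20 members (58.8%) had p under 0.05, against 33.8% of all genes, and DESeq2 called 15.

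Psmc3, an ATPase of the base, ranged from 56.1 to 86.5 CPM (median 68.7) in 34 chow ad libitum libraries and from 54.5 to 69.9 (median 62.6) in 34 HFD libraries. The ranges overlapped, and 31 of 34 HFD libraries lay below the chow median. Its mean went from 69.6 ± 6.06 to 62.6 ± 4.23 CPM (SD, log2FC -0.15, SE 0.027, edgeR adjusted p = 9.8e-05). Psmd4 ranged from 34.0 to 62.7 CPM (median 44.0) on chow and from 35.0 to 45.2 (median 40.5) on HFD, so that no HFD library reached the upper part of the chow range. Its log2FC was -0.19 (SE 0.035, edgeR adjusted p = 1.6e-04). The ATPases Psmc2 (log2FC -0.15, SE 0.033) and Psmc4 (log2FC -0.13, SE 0.028) fell with them, from 35.0 ± 3.43 to 31.5 ± 2.86 CPM and from 60.3 ± 5.44 to 55.0 ± 3.65 CPM. Psmd9 had the most negative log2FC, -0.24 (SE 0.058). Of the catalytic genes Psmb5 fell (log2FC -0.24, SE 0.071, adjusted p = 0.013; mean 17.1 ± 3.92 CPM on chow and 14.5 ± 3.25 on HFD), while Psmb6 had a log2FC of -0.15 (adjusted p = 0.13) and Psmb7 of -0.043 (adjusted p = 0.63). Psmd14 was at -0.084 (adjusted p = 0.24).

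Marker genes moved beside these: 7 of 17 microglial markers and 5 of 5 erythrocyte genes were lower on HFD and 3 of 12 oligodendrocyte markers higher, and with scores of oligodendrocyte, neuronal, astrocyte, endothelial and mural markers in the model 14 subunit genes were called, 11 of them the same. The count was 5 without ZT18, 9 without ZT14, 5 with runs of neighbouring title numbers as a random block and 9 with offsets for transcript length, 8 of these lower and 1, Psma4, higher. Here and below, the share of all genes called in the same alternative fit is not given. A changed count is therefore not read as particular to the subunit genes.

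Under dark-feeding 23 of 34 subunit genes were lower on HFD, where 23.1% of all genes were, and 1, Psmd1, was higher, where 22.8% of all genes were. The core median was -0.22 and the regulatory median -0.11, against -0.0071 over all genes. Psmb5 ranged from 12.9 to 37.4 CPM (median 17.3) in chow dark-feeding and from 8.06 to 17.1 (median 13.0) in HFD dark-feeding. Each of the 33 HFD libraries lay below the chow median, although the ranges overlapped. The mean went from 18.3 ± 5.38 to 12.9 ± 1.76 CPM (log2FC -0.47, SE 0.064, edgeR adjusted p = 3.3e-08), and without the libraries that stood apart the log2FC was -0.38. The highest chow values were at ZT14, where the median of 5 libraries was 30.7 CPM against 15.1 to 19.6 at the other times.

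Psmb6 and Psmb7 fell too, from 15.9 ± 4.13 to 13.0 ± 1.71 CPM (log2FC -0.28, adjusted p = 1.4e-04) and from 26.3 ± 6.35 to 21.3 ± 2.40 CPM (log2FC -0.28, adjusted p = 2.5e-05). Of the 7 beta-ring genes 6 fell, and of the 7 alpha-ring genes 3 did, Psma2, Psma6 and Psma7. In the lid 7 of 8 fell, the exception being Psmd6 at -0.033. Psmd8, a lid subunit that joins late in its assembly, ranged from 28.8 to 44.8 CPM (median 34.3) on chow and from 24.3 to 34.1 (median 28.8) on HFD. Again all 33 HFD libraries were below the chow median. The log2FC was -0.25 (SE 0.030, edgeR adjusted p = 3.2e-09). Psmc3 (log2FC -0.20) and Psmd4 (log2FC -0.24) fell as under ad libitum feeding. Psmd14, at 14.6 ± 2.70 CPM on chow and 13.3 ± 1.56 on HFD, fell as well (log2FC -0.13, adjusted p = 0.029). Psmd1, the larger scaffold of the base beside Psmd2, rose from 50.1 ± 7.68 to 54.9 ± 6.31 CPM (log2FC 0.13, SE 0.044, adjusted p = 0.012), while Psmd2 had a log2FC of -0.056 (adjusted p = 0.028).

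Beside these, 10 of 17 microglial, 11 of 12 astrocyte, 7 of 10 endothelial, 5 of 6 mural and 5 of 5 erythrocyte genes were lower on HFD, and 7 of 12 oligodendrocyte markers higher. With the marker scores in the model 2 subunit genes were called, Psmb5 (log2FC -0.28, adjusted p = 0.041) and Psmd8 (log2FC -0.24, adjusted p = 0.0025), against 24 without, and with offsets for transcript length 14 were called, 12 lower and 2 higher. Whether calls over all genes fell as much in these models is not given.

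Under light-feeding 20 of 34 subunit genes were lower on HFD, where 25.1% of all genes were, and 2, Psmd1 and Psma3, were higher, where 25.2% of all genes were. The core median was -0.16 and the regulatory median -0.10, against -0.0056 over all genes. Psmd1 ranged from 37.2 to 60.3 CPM (median 48.6) in chow light-feeding and from 50.6 to 76.6 (median 58.5) in HFD light-feeding. The ranges overlapped, yet 0 of 33 HFD libraries lay below the chow median and the mean was higher on HFD at each of the 6 times. The mean went from 48.9 ± 5.04 to 59.6 ± 6.22 CPM (log2FC 0.29, SE 0.035, edgeR adjusted p = 5.8e-10). Psmd1 was also the 1 subunit gene called with marker scores in the model, at a log2FC of 0.29 (adjusted p = 1.3e-04).

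Psma3, an alpha-ring subunit, rose by a log2FC of 0.10 (SE 0.042, adjusted p = 0.041), with means of 40.8 CPM on chow and 43.5 CPM on HFD. Among the genes that fell, Psmd4 ranged from 40.4 to 57.0 CPM (median 49.3) on chow and from 35.6 to 50.7 (median 42.5) on HFD, with 31 of 33 HFD libraries below the chow median. Its log2FC was -0.20 (SE 0.031, edgeR adjusted p = 1.3e-07). Psmd13 fell from 78.2 ± 6.72 to 69.1 ± 5.51 CPM, Psma7, a gate subunit, from 33.8 ± 3.75 to 29.1 ± 3.16 CPM, and Psmc3 from 72.2 ± 4.65 to 64.9 ± 5.21 CPM. All 3 catalytic genes fell, Psmb5 from 18.8 ± 4.06 to 14.6 ± 2.30 CPM (log2FC -0.37, SE 0.066, adjusted p = 3.8e-06), Psmb6 by 0.29 (adjusted p = 3.0e-05) and Psmb7 by 0.23 on the log2 scale (adjusted p = 0.0015). Psmd14 fell by 0.13 (adjusted p = 0.027). Here 9 of 17 microglial, 11 of 12 astrocyte, 9 of 10 endothelial and 3 of 5 erythrocyte genes were lower and 8 of 12 oligodendrocyte markers higher on HFD.

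**Figure D2:**
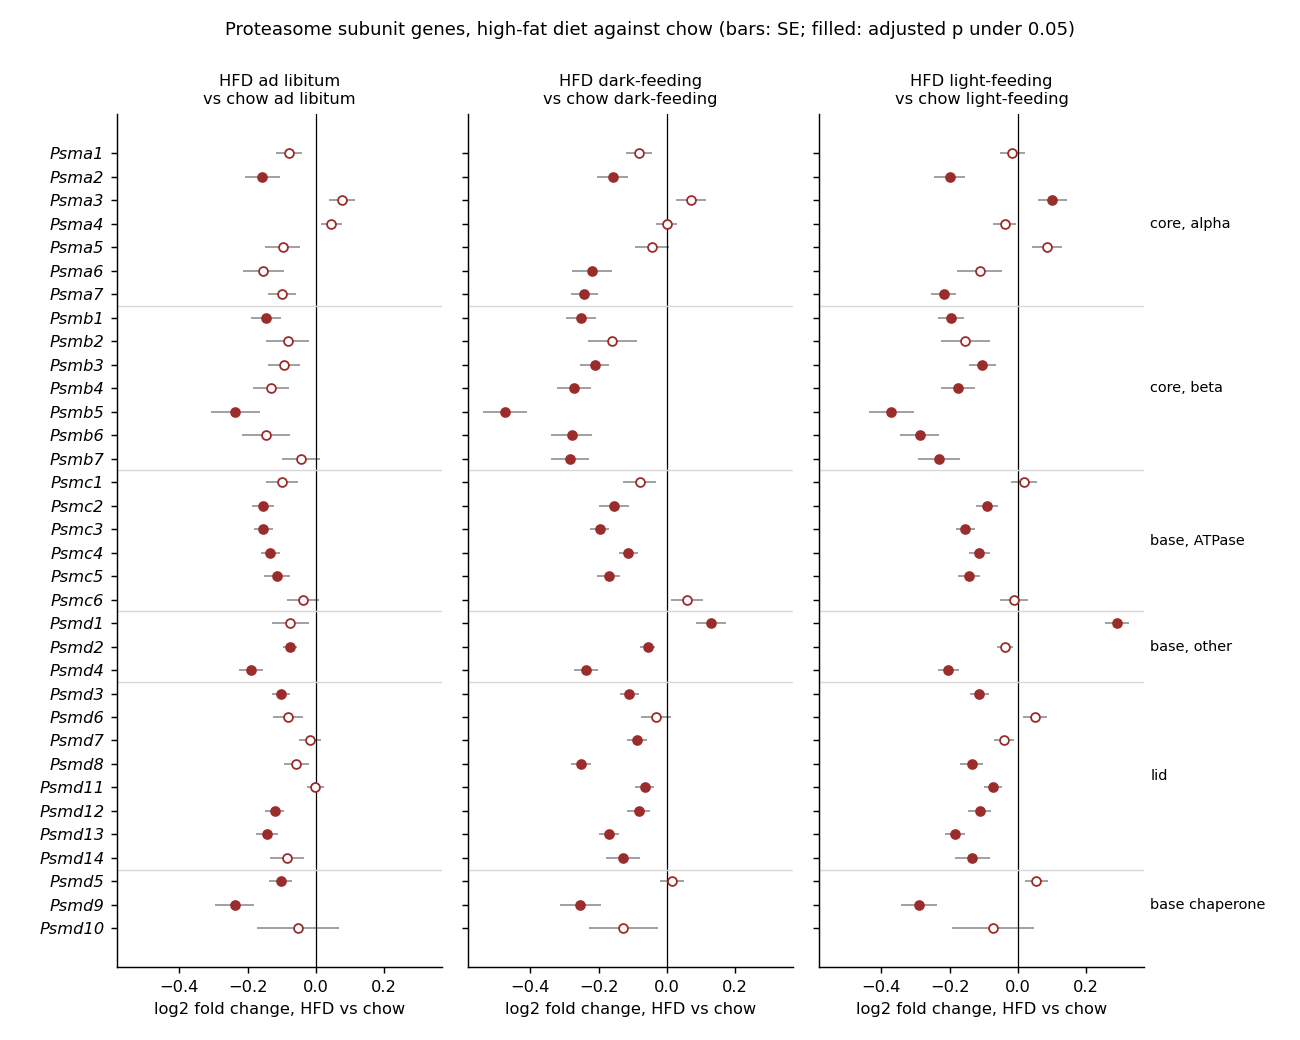
Log2 fold change of HFD against chow for the 34 subunit genes under each feeding schedule, grouped by role. Circles are edgeR estimates, bars their SE, and filled circles have an adjusted p under 0.05. Most points lie left of 0, Psmb5 farthest at -0.47 under dark-feeding, and Psmd1 lies right of 0 at 0.29 under light-feeding.

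Over the 3 schedules, whose comparisons share no library, 12 of 34 subunit genes (35.3%) were lower on HFD every time, against 867 of 14393 genes tested (6.02%). In all 3, diet coincided with the title series. The share of all genes is not matched for length: 31 of the 34 were shorter than the median gene, and the shortest transcripts tended to be lower on HFD. With marker scores in the model no subunit gene was lower every time, since under light-feeding Psmd1 alone was called, as higher. The 12 genes were Psma2, Psmb1 and Psmb5 of the core, the ATPases Psmc2, Psmc3, Psmc4 and Psmc5, the ubiquitin receptor Psmd4, the lid genes Psmd3, Psmd12 and Psmd13, and the chaperone Psmd9. Lower in 2 schedules were 9 genes, Psmb6, Psmb7 and Psmd14 among them, and lower in 1 were 3. The 10 lower in none were Psma1, Psma3, Psma4, Psma5, Psmb2, Psmc1, Psmc6, Psmd1, Psmd6 and Psmd10. Summed core FPKM averaged 487 ± 66.1, 506 ± 87.2 and 511 ± 68.4 in chow ad libitum, dark-feeding and light-feeding, and 451 ± 56.5, 430 ± 29.7 and 450 ± 30.5 in the HFD groups. Summed regulatory FPKM averaged 705 ± 54.4, 719 ± 66.6 and 718 ± 40.5 on chow and 648 ± 35.9, 647 ± 32.0 and 661 ± 34.1 on HFD. In every pair of groups compared, the ranges of all 34 genes overlapped.

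**Figure D3:**
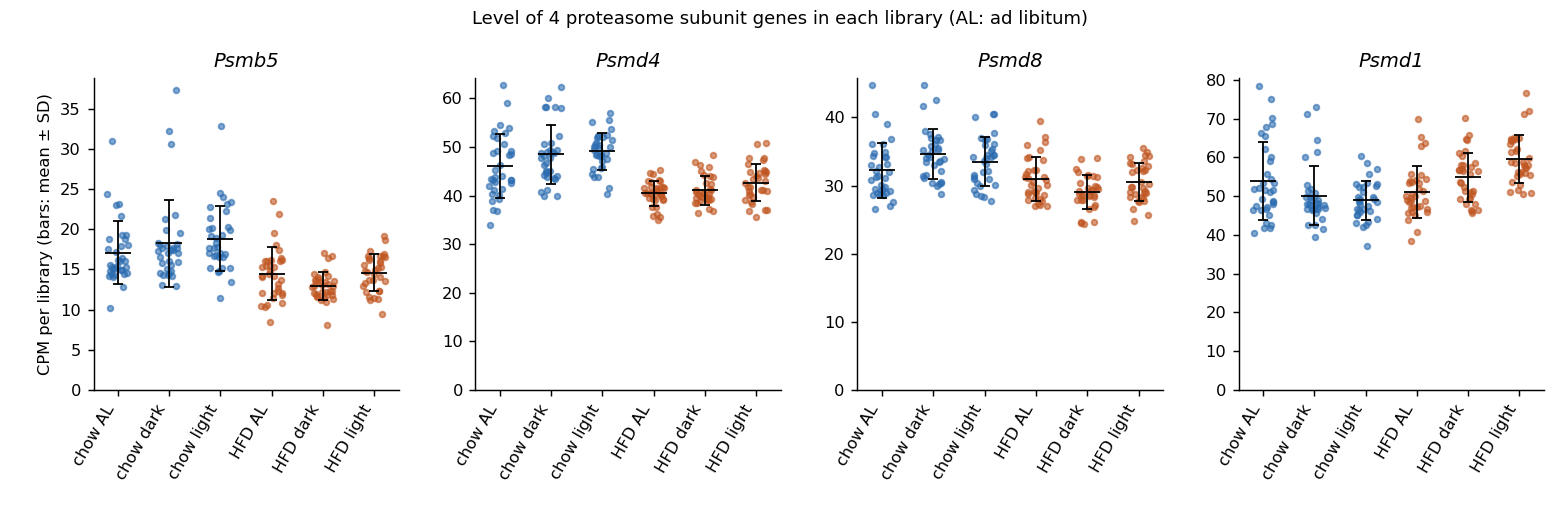
CPM of Psmb5, Psmd4, Psmd8 and Psmd1 in each library of the 6 groups, chow in blue and HFD in orange (AL, ad libitum), with the mean and SD. Psmb5 and Psmd4 sit lower on HFD in each schedule, and Psmd8 does so under dark-feeding and light-feeding. Psmd1 sits highest in HFD light-feeding, at 59.6 ± 6.22 CPM.

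Transcript length moved with the diet differences. Over all genes the median log2FC of the shortest 10% of transcripts was -0.098, -0.18 and -0.17 in the ad libitum, dark-feeding and light-feeding comparisons, and that of the longest 10% was 0.059, 0.12 and 0.096. Across the 34 subunit genes, which are not independent replicates, log2FC and log length had Pearson's r of 0.32, 0.61 and 0.52, and Spearman's rho of 0.33, 0.61 and 0.50. With offsets for transcript length the core medians were -0.018, -0.058 and -0.013 and the regulatory medians -0.071, -0.049 and -0.041, and 9, 14 and 15 genes were called. Under light-feeding the split then became 9 lower and 6 higher, against 20 and 2 without offsets. Among the genes called with the offsets in each of the 3 schedules were Psmb5, Psmc3, Psmd3, Psmd4, Psmd9 and Psmd13. Psmd1 kept a log2FC of 0.29 under light-feeding (adjusted p = 7e-10).

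**Figure D4:**
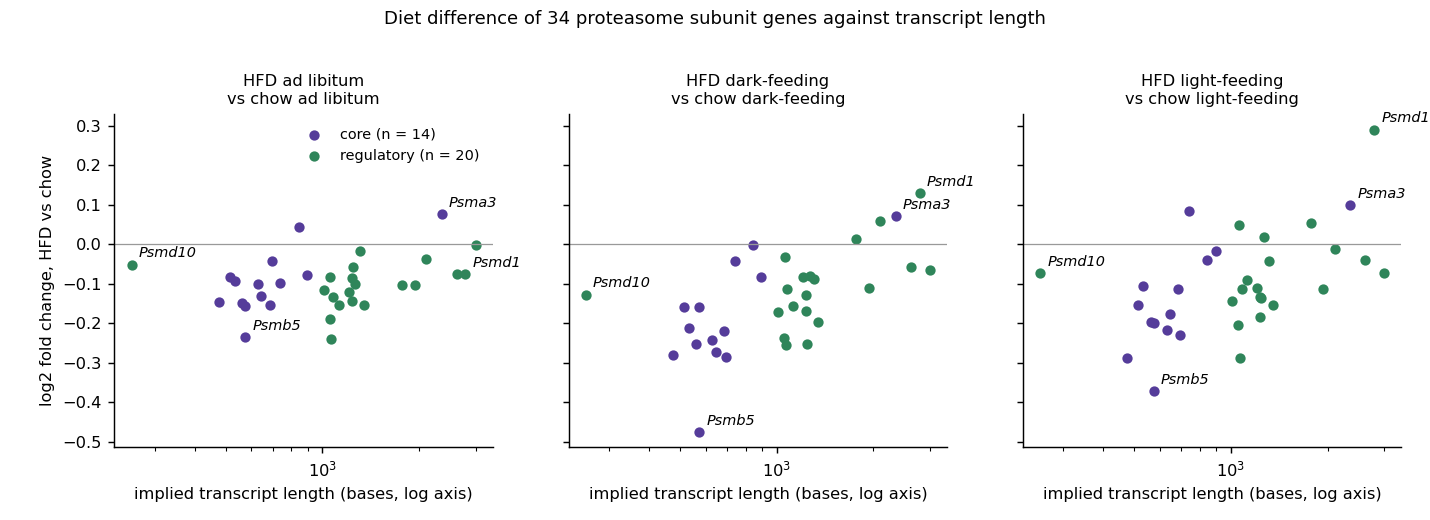
Log2 fold change of HFD against chow for each subunit gene against its implied transcript length in bases (log axis), one panel per schedule, core genes in purple and regulatory genes in green. Psmb5, a short core gene, lies lowest under dark-feeding and light-feeding and the longer Psmd1 highest, with Pearson's r of 0.32, 0.61 and 0.52 from left to right.

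Feeding schedules were compared within each diet. On chow, dark-feeding against ad libitum gave 0 of 34 subunit genes (edgeR; 0.0% of all genes tested; 1 member with p under 0.05 before adjustment, where 11.8% of all genes had it, and 0 by DESeq2). The smallest p was that of Psmd8, with 31.3 CPM as the ad libitum median and 34.3 CPM as the dark-feeding median (log2FC 0.10, SE 0.030, adjusted p = 0.38), followed by Psmc6 at -0.089. Light-feeding against ad libitum on chow also gave 0 by edgeR (1.6% of all genes), with 7 members (20.6%) at p under 0.05 before adjustment, near the 19.0% of all genes, and 0 by DESeq2. There Psmd1 had a log2FC of -0.13 (SE 0.050, adjusted p = 0.14) and Psmd9 of 0.14 (SE 0.056, adjusted p = 0.14). Without the libraries that stood apart 3 genes were higher under light-feeding, Psmb5, Psmb6 and Psmd4, and without ZT18 1, Psmd1, was lower. Without ZT14, where 2 chow ad libitum libraries stood apart, 7 genes were higher under light-feeding: Psmb5, Psmb6, Psmb7, Psmc3, Psmd4, Psmd8 and Psmd9. The 1.6% of all genes is that of the full fit. Shares for these reduced fits are not given, so their counts are not read as a result about the subunit genes. Light-feeding against dark-feeding on chow gave 0 by edgeR (0.0% of all genes), 1 at p under 0.05 before adjustment (4.31% of all genes) and 0 by DESeq2, with log2FC of 0.10 for both Psmc6 and Psmd9.

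On HFD, dark-feeding against ad libitum gave 1 lower gene, Psmb7, where 2.98% of all genes were lower. Its level ranged from 17.5 to 41.7 CPM (median 23.3) ad libitum and from 16.8 to 27.0 (median 20.8) under dark-feeding, the upper part of the ad libitum range being empty under dark-feeding. The log2FC was -0.16 (SE 0.051, adjusted p = 0.046), and it was not called without the libraries that stood apart or with the marker scores. The call also went without ZT2, ZT6, ZT14 or ZT22 in turn. Psmb5 and Psmb6 were not called.

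Light-feeding against ad libitum on HFD gave 2 higher genes, where 5.7% of all genes were higher, and 1 lower, where 5.0% were. Psmd1 ranged from 38.3 to 69.8 CPM (median 49.8) ad libitum and from 50.6 to 76.6 (median 58.5) under light-feeding, with 0 of 33 light-feeding libraries below the ad libitum median. Its log2FC was 0.23 (SE 0.040, edgeR adjusted p = 1.8e-04). Psmd5 went from 21.3 ± 2.02 to 22.8 ± 2.02 CPM (log2FC 0.098, SE 0.031, adjusted p = 0.033). Psmd11 went the other way, from 77.1 ± 5.09 to 72.8 ± 5.73 CPM (log2FC -0.082, SE 0.023, adjusted p = 0.015). Title numbers separate these groups in part: with a smooth trend of title number in the model 0 subunit genes were called and the log2FC of Psmd1 was -0.0034, and with title-number runs as a random block 0 were called. The count was 1 without ZT22, 2 without ZT2 or ZT14 and 5 without the libraries that stood apart. Light-feeding against dark-feeding on HFD gave 0 by edgeR (0.0834% of all genes), 6 members (17.6%) at p under 0.05 before adjustment against 10.9% of all genes and 0 by DESeq2, with log2FC of 0.12 for Psmd1 (adjusted p = 0.13) and 0.17 for Psmb5 (adjusted p = 0.16).

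Whether the diet effect differed between schedules was tested directly. Diet effect here means the log2FC of HFD against chow, in which diet and title series cannot be told apart. Against ad libitum feeding, the diet effect under dark-feeding was lower for 1 subunit gene, Psmd8 (difference in log2FC -0.19, SE 0.047, edgeR adjusted p = 0.025), where 0.556% of all genes were lower. The diet effects behind it were -0.057 ad libitum and -0.25 under dark-feeding. Under light-feeding it was higher for 2, where 5.98% of all genes were higher: Psmd1 (0.36, SE 0.066, adjusted p = 2.6e-04), from -0.075 ad libitum to 0.29, and Psmd5 (0.16, SE 0.046, adjusted p = 0.018), from -0.10 to 0.054. With the marker scores in the model Psmd1 alone of these was called (0.26, adjusted p = 0.015). Title number was in no interaction model. The Psmd1 difference between HFD light-feeding and HFD ad libitum, which enters this test, was not called with a trend of title number, as given above. Psmb5, whose diet effects were -0.24, -0.47 and -0.37, passed neither of these tests. The Psmd8 count became 0 without ZT2 or ZT22, 2 without ZT10 and 3 without ZT18. The count for light-feeding became 6 without ZT14, 3 without ZT18 and 1 without ZT2, ZT6 or ZT10.

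Daily rhythms were tested as a cosine of 24 h period. Libraries of the same group and time often had neighbouring title numbers. Title number was in no model of a rhythm or of a difference in rhythm. Time of day and any processing that followed title number therefore cannot be fully told apart in these tests. Over all 6 groups together 11 of 34 subunit genes varied with time, where 41.0% of all genes did. Of the 11, 10 were of the regulatory particle and 1, Psma3, of the core. The ATPase gene Psmc1 had a peak-to-trough log2 difference of 0.20 with its peak at ZT17.7 (edgeR adjusted p = 4.6e-05), Psmd11 one of 0.11 at ZT14.6, Psmc5 one of 0.15 at ZT16.4 and Psmd6 one of 0.16 at ZT16.9. These pooled peaks fell in the dark phase. Psmd9 peaked in the light phase, at ZT9.0, and so did Psmd13, at ZT8.39. The pooled fit gives all groups the same phase, although the rhythms of Psmc1, Psmc5 and Psmd11 differed between light-feeding and dark-feeding on chow (below). In chow light-feeding Psmd11 peaked in the light phase. The mean of Psmc5 there was highest at ZT2, 59.6 CPM, and lowest at ZT18, 53.4 CPM. Of the 5 libraries at ZT2, 2 stood apart, as did 1 of 6 at ZT18. Psmc5 was not called rhythmic in that group.

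Within chow ad libitum 1 gene was rhythmic, where 4.56% of all genes were. It was Psmc5, with means of 48.7 ± 2.83 CPM at ZT10 and 63.8 ± 7.24 CPM at ZT14 (n = 5 each), a peak-to-trough log2 difference of 0.29 and a peak at ZT16.0 (edgeR adjusted p = 0.04). Within chow dark-feeding 4 were, where 22.9% of all genes were. Psmc5 went from 43.3 to 54.1 CPM (median 49.4, n = 6) at ZT10 to 60.4 to 84.8 CPM (median 70.2, n = 5) at ZT14, without overlap. Psmc1, Psmd6 and Psmd7, the partner of Psmd14 in the lid, peaked at ZT15.9, 17.3 and 15.2. Within chow light-feeding 3 were, where 20.3% of all genes were: Psma3 peaked at ZT18.4, Psmd13 at ZT6.5 and Psmd11 at ZT10.6.

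Within HFD ad libitum 9 were rhythmic, where 19.6% of all genes were. Psmd6, a lid scaffold, rose from 32.8 to 37.0 CPM (median 35.9, n = 6) at ZT2 to 45.9 to 48.7 CPM (median 46.9, n = 6) at ZT14, without overlap (peak-to-trough log2 difference 0.38, peak ZT14.2, adjusted p = 1.3e-04). Psmd9 was highest at ZT6, with a median of 11.5 CPM (n = 5) against 8.35 CPM at ZT18 (n = 6), a peak-to-trough difference of 0.49 at ZT6.44. Psmb6 (0.48, ZT7.58) and Psmd4 (0.18, ZT9.16) also peaked in the light phase. Within HFD dark-feeding 7 were rhythmic, where 27.5% of all genes were, and Psmc1, Psmc5, Psmd1 and Psmd2 peaked at ZT18.6, 18.2, 18.3 and 18.1. Psmd1 had medians of 49.3 CPM at ZT6 and 60.3 CPM at ZT18 (n = 5 each). Within HFD light-feeding 0 were by edgeR, where 0.841% of all genes were, with 7 members (20.6%) at p under 0.05 before adjustment against 16.2% of all genes, and 1 by limma on FPKM.

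Rhythm counts also moved with single times. The share of all genes called in the same reduced fit is not given, here or for differences in rhythm. No such count is read as above or below it. Over all groups the count was 7 without ZT14. In chow ad libitum it was 0 without ZT2, ZT14, ZT18 or ZT22 or the libraries that stood apart, and 3 without ZT10. In chow dark-feeding it was 2 without ZT6, 8 without ZT10 and 14 without ZT18, and in chow light-feeding 0 without ZT6 and 10 without ZT18. It was 3 without ZT18 in both HFD ad libitum and HFD dark-feeding, 4 without ZT6 or ZT22 in HFD dark-feeding, and in HFD light-feeding it was 2 without ZT22.

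In groups with libraries that stood apart, fewer members were highest at the commonest time once those libraries were left out. That time itself changed in chow ad libitum and chow light-feeding, and stayed the same in chow dark-feeding and HFD ad libitum. In chow dark-feeding 28 of 34 genes (82.4%) had their highest mean at ZT14, where 30.0% of all genes did. Without those libraries 17 did (50.0%, against 21.4%). In chow ad libitum 25 were highest at ZT14 (73.5%, against 18.0%), and 9 without those libraries (26.5%, against 19.2%), when ZT18 held the most, 11. In chow light-feeding 15 were highest at ZT2 (44.1%, against 20.4%), and 8 without those libraries (23.5%, against 17.7%), when ZT22 held the most, 11. In HFD ad libitum 20 were highest at ZT6 (58.8%, against 25.9%), and 13 without its library that stood apart (38.2%, against 22.4%). The other HFD groups held no such library. There 12 were highest at ZT18 in HFD dark-feeding (35.3%, against 15.8%) and 14 at ZT14 in HFD light-feeding (41.2%, against 14.3%). The mean core level in chow dark-feeding at ZT14 was 0.41 ± 0.27 above the mean of all libraries (SD, n = 5), and 0.13 for the 2 libraries that did not stand apart. In chow ad libitum at ZT14 it was 0.19 ± 0.24 (n = 5), and 0.042 for the remaining 3.

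**Figure D5:**
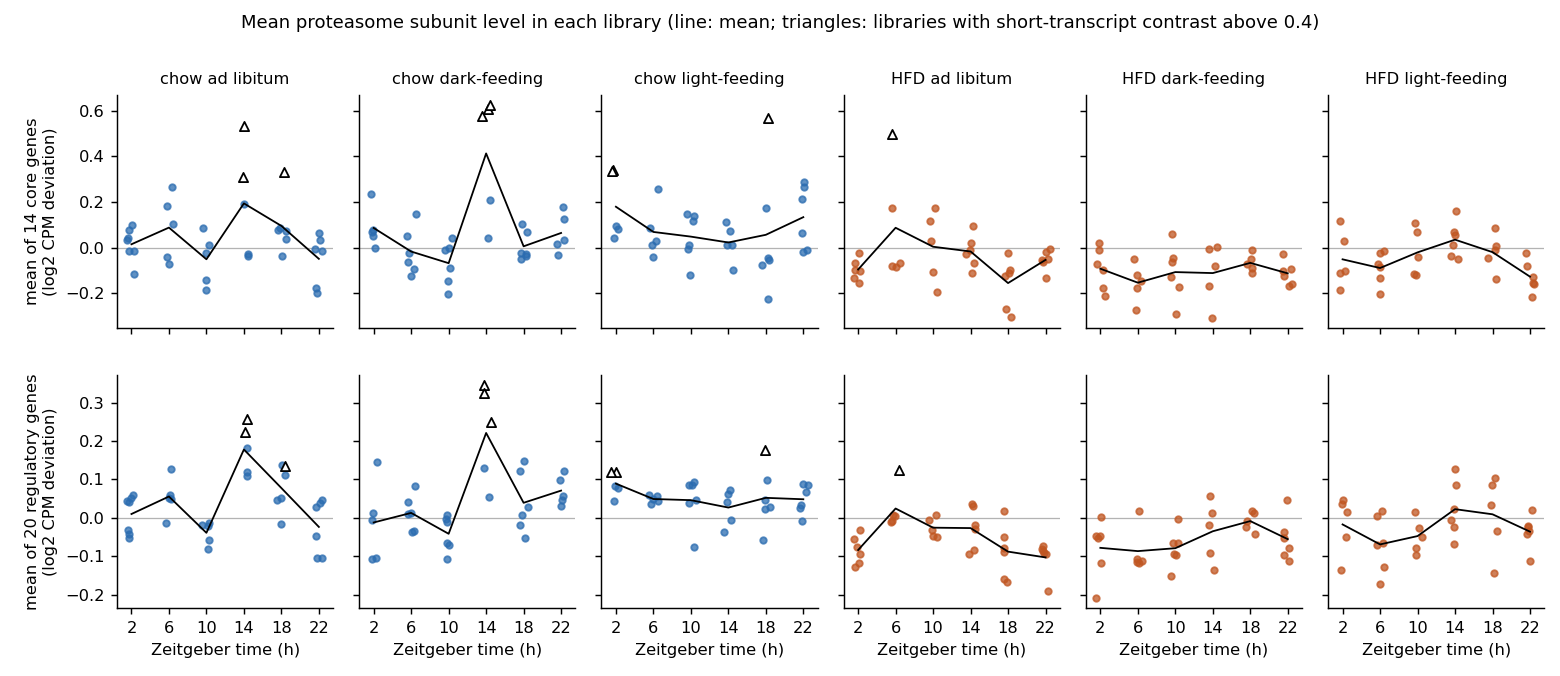
Mean level of the core genes (top) and regulatory genes (bottom) in each library by Zeitgeber time in hours, as the deviation of log2 CPM from the mean of 200 libraries. Points are libraries, lines join the means and triangles are the 10 libraries that stood apart. In chow dark-feeding the line rises to 0.41 at ZT14, where 3 of 5 libraries are triangles.

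Differences in rhythm between groups were tested as interactions. HFD against chow gave 0 subunit genes ad libitum (edgeR; 0.0% of all genes; 12 at p under 0.05 before adjustment, 35.3% against 16.0% of all genes) and 0 under dark-feeding (0.0% of all genes; 1 at p under 0.05 before adjustment, 2.94% against 16.1%), and no other tool was run on these. Under light-feeding it gave 3, Psmd4, Psmd13 and Psmc5, where 9.18% of all genes differed. Psmd4 had medians of 51.8 CPM at ZT6 and 43.9 CPM at ZT14 in chow light-feeding (n = 5 each), and of 38.1 and 47.8 CPM at those times in HFD light-feeding (n = 6 each). Without ZT18, 11 genes differed in this comparison, without ZT6 0, without ZT14 1 and without ZT10 or ZT22 2.

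Light-feeding against dark-feeding on chow gave 11 subunit genes, where 37.0% of all genes differed, with the smallest adjusted p for Psmc5 (0.0026), Psmd8 and Psmd11 (0.0099 each) and Psmb3 (0.014). The count was 4 without the libraries that stood apart, 2 without ZT14, 7 without ZT2 or ZT6 and 18 without ZT18. On HFD the same test gave 6, where 21.6% of all genes differed, led by Psmd13 (0.011), Psmb7 (0.013), Psmd4 (0.015) and Psma7 (0.020), and 1 to 3 without ZT2, ZT6, ZT10, ZT14 or ZT22.

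Subunit genes also varied together from library to library. With the mean of each group and time removed, the median Pearson's r over 91 pairs of core genes was 0.40, over 190 pairs of regulatory genes 0.14 and over 280 mixed pairs 0.18, against -0.0045 over all pairs of genes tested, over the same 200 libraries. After each library's length trend was taken off, these medians were 0.17, 0.12 and 0.089. Before that step Psmb2, Psmb4 and Psmb6 had the highest median r with the other members, 0.37, 0.37 and 0.36, and Psmd11 the lowest, -0.091. The order changed once the trend was off. Psmc1, Psmd1 and Psmc2 were then highest, at 0.32, 0.27 and 0.23, and Psmd13 lowest, at -0.091. Psmb2, Psmb4 and Psmb6 were at 0.19, 0.18 and 0.18. The points share libraries and depth, and the values are descriptive.

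Other genes of the pathway came from lists set with earlier results known. Their counts stand beside shares of all genes of 10.1%, 23.1% and 25.1% lower, and 9.96%, 22.8% and 25.2% higher, on HFD in ad libitum, dark-feeding and light-feeding. With so few genes a list, no count is read as differing from these shares. Of the immunoproteasome genes, 1 of 3 was lower on HFD under each schedule, Psmb10 each time, at log2FC of -0.18, -0.14 and -0.23 in ad libitum, dark-feeding and light-feeding, with the dark-feeding adjusted p at the threshold itself (0.05 as rounded), while Psmb8 and Psmb9 were not called. Of 5 activators and inhibitors of the core, Psme4, an activator of the core, was higher on HFD in each schedule (0.12, 0.20 and 0.15). Psme3 was higher ad libitum and under dark-feeding (0.12 and 0.086). Psme1, a subunit of the interferon-induced cap, was lower under dark-feeding and light-feeding (-0.34 in both), and Psme2, its partner, ad libitum (-0.12). Of 5 chaperones of core assembly 0 were called ad libitum by edgeR, and 2 were lower under dark-feeding (Psmg2 and Psmg3) and 2 under light-feeding (Psmg3 and Psmg4).

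Among 5 other measured proteins of the regulatory particle, Txnl1, a thioredoxin-like protein bound to the lid, was higher on HFD in each schedule (0.15, 0.15 and 0.13). Ube3c, a ubiquitin ligase on the particle, was higher under dark-feeding and light-feeding, and Usp14, a deubiquitinating enzyme, under light-feeding. Adrm1, a ubiquitin receptor of the base like Psmd4, was lower under dark-feeding (-0.15) and light-feeding (-0.11). Of 11 measured genes of the pathway that activates the Nfe2l1 product, 4 were higher ad libitum, 4 under dark-feeding and 2 under light-feeding, and 0 were lower by edgeR. Sel1l, which acts in degradation at the endoplasmic reticulum, was higher each time (0.12, 0.17 and 0.15), and Nfe2l1 itself under light-feeding, from 156 ± 14.7 to 169 ± 11.6 CPM (0.12, adjusted p = 3e-04). Of 12 genes of ubiquitin and its shuttles 3, 5 and 4 were lower and 1, 2 and 3 higher. Ubb, a polyubiquitin gene, was lower in each schedule (-0.20, -0.52 and -0.46).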

How the data were processed

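The members, gene lists, tests and alternatives were chosen with earlier results of these data known. The authors deposited estimated counts per gene, not normalised, of which 8.03% were not whole, per the file as deposited. They also deposited FPKM values, which the authors normalised by transcript length and depth. Rnor_6.0 is the build named by the submitters' processing notes. For the aligner and the counter, the sources used here give no name. Libraries were strand-specific, per the labels' protocols. The planned tests assumed raw counts, so estimated counts were rounded. Levels are CPM after trimmed-mean (TMM) scaling, while membership used CPM over plain library totals. Transcript lengths were implied from the ratio of counts to FPKM.

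In R 4.3.3, edgeR 4.0.16's filter left 14393 genes. Pairs of groups were fitted alone with time as a factor, by the quasi-likelihood test with Benjamini-Hochberg adjustment over all genes at 0.05. Interactions used 4 groups, and rhythms a 24 h cosine and sine. Log2 levels of libraries used a prior count of 2. Alternatives used DESeq2 1.42.0, limma 3.58.1 on log2(FPKM + 0.1 or 1) and voom with runs of 10 title numbers, offsets from a loess of span 0.5, marker scores, a spline of 3 degrees of freedom and omitted times. Summaries used Python 3.11.15 with pandas 2.3.3. Tests were checked on simulated counts.

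Named genes were, per comparison, up to 4 with the smallest adjusted p in each direction, or the 2 with the smallest p where none passed, plus Psmb5, Psmb6, Psmb7, Psmd4 and Psmd14 in the diet comparisons. Others were named for counts of 5 or fewer or as role examples after values were seen. Psmd9 and Psmd12 had nearly only estimated, not whole, counts, so their values are uncertain. Depth limits Psmd10 most.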

Additional observations from a re-analysis of the deposited data

Results flagged for a closer look

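Of 72 sets of libraries of 1 group and time whose mean core or regulatory level was examined, 5 held a library far from the others, where chance gives about 5% of sets. On the log2 CPM deviation scale, the highest core level in chow ad libitum at ZT18 was 0.33, with the next at 0.086; this was one of the 10 libraries of high short-transcript contrast. The lowest regulatory level in chow light-feeding at ZT10 was -0.075 (next 0.038). In HFD ad libitum the highest regulatory level at ZT6 was 0.13 (next 0.0077), again a library of high contrast, and the lowest at ZT22 was -0.19 (next -0.095). The highest in HFD dark-feeding at ZT6 was 0.018 (next -0.11).

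Diet effects that differed between schedules by the interaction test were those of Psmd8 between dark-feeding and ad libitum (-0.19), and of Psmd1 (0.36) and Psmd5 (0.16) between light-feeding and ad libitum. Rhythms differed between HFD and chow light-feeding for Psmd4, Psmd13 and Psmc5 (adjusted p = 0.0097, 0.014 and 0.037 by edgeR). Between chow light-feeding and dark-feeding they differed for Psmc5 (adjusted p = 0.0026), Psmd11 (0.0099), Psmd8 (0.0099), Psmb3 (0.014), Psmb6 (0.016), Psmc1 (0.018), Psma6 (0.023), Psmc3 (0.029), Psma7 (0.038), Psmb5 (0.039) and Psmb1 (0.047). Between HFD light-feeding and dark-feeding they differed for Psmd13 (adjusted p = 0.011), Psmb7 (0.013), Psmd4 (0.015), Psma7 (0.020), Psmd1 (0.036) and Psmd9 (0.048).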

How the results depend on the processing

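Of 299 alternative counts of called subunit genes, 208 stayed within 1.5 times the reported count and 91 did not. Of 681 alternatives for 53 named gene results, 545 kept their direction and side of the threshold, 134 lost the call and 2 turned. The cause of a move was not tested. The share of all genes called in the same alternative fit is not given beside these counts. For HFD ad libitum vs chow ad libitum (14 genes) the count was 9 with length offsets, 5 with title-number runs as a block and 5 to 19 when each time was left out in turn. For HFD dark-feeding vs chow dark-feeding (24) it was 14 with length offsets and 2 with marker scores, and for HFD light-feeding vs chow light-feeding (22) 1 with marker scores. For chow light-feeding vs chow ad libitum (0) it was 3 without the libraries of highest short-transcript contrast, an alternative chosen after seeing the data, and 0 to 7 with a time left out. For HFD dark-feeding vs HFD ad libitum (1) it was 0 with length offsets, 0 with marker scores, 0 with FPKM and a pseudocount of 0.1, 0 with one of 1, 0 with no low-count filter, 0 with the block, 3 with a title spline, 0 without the high-contrast libraries and 0 to 2 with a time left out. In the result Psmb7, HFD dark-feeding vs HFD ad libitum, the log2FC turned to 0.000839 with marker scores. For HFD light-feeding vs HFD ad libitum (3) the count was 5 with length offsets, 0 with the block, 0 with the title spline, 5 without the high-contrast libraries and 1 to 4 with a time left out. In the result Psmd1, HFD light-feeding vs HFD ad libitum, the log2FC turned to -0.00342 with the title spline. The interaction of diet and dark-feeding (1) gave 0 with marker scores and 0 to 3 with a time left out, and that with light-feeding (2) gave 1 and 1 to 6. Rhythm counts with a time left out ran from 0 to 3 in chow ad libitum (1), 2 to 14 in chow dark-feeding (4), 0 to 10 in chow light-feeding (3), 3 to 8 in HFD ad libitum (9), 3 to 6 in HFD dark-feeding (7), 0 to 2 in HFD light-feeding (0) and 7 to 16 over all groups (11). With marker scores they were 3, 0, 0, 5, 1 and, over all groups, 5, HFD light-feeding not moving. With time as a factor they were 3 in chow ad libitum, 20 in chow dark-feeding, 3 in HFD ad libitum, 4 in HFD dark-feeding, 2 in HFD light-feeding and 20 over all groups. With length offsets they were 5 in chow light-feeding, 4 in HFD ad libitum and 17 over all groups. Chow ad libitum gave 0 without the high-contrast libraries, and HFD light-feeding 1 with FPKM and a pseudocount of 0.1. Differences in rhythm, with marker scores and then with a time left out, were 0 and 0 to 11 for HFD against chow light-feeding (3), 2 and 2 to 18 for chow light-feeding against dark-feeding (11) and 1 and 1 to 6 for HFD light-feeding against dark-feeding (6). The chow count was 4 without the high-contrast libraries, and HFD against chow dark-feeding (0) gave 0 to 1 with a time left out. No paired analysis was possible because the labels give no replicate numbers: title numbers run serially through the chow and, separately, the HFD libraries. Numbers found in both diets within a schedule, 10 ad libitum, 8 under dark-feeding and 8 under light-feeding, name libraries of the same time in 0, 2 and 2 cases. Diet and the title series cannot be told apart, and depth limits the precision of low genes such as Psmd10.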
